A study of Danio rerio with 9 samples.

Results

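Transcripts present in both glial populations of the zebrafish trunk and low in its neurons were few. A transcript ID was taken if it reached at least 20 CPM (estimated counts scaled to a file sum of 1000000) in all 6 glial libraries and stayed under 10 CPM in all 3 neuronal libraries. Of 52216 IDs in the files, 1606 met the glial condition, and 9 of these, 0.560%, also met the neuronal one. The number rests on these limits and on each library. It was 12 to 21 when 1 library was left out, the highest without neurons replicate 1. With a glial floor of 10 CPM it was 41. Both changes loosen the rule, so the number could only stay or rise. All 9 are described here, ranked by the gap between the lowest glial and the highest neuronal level. The members were chosen by these levels, so the gap between glia and neurons is given as a description, with no test. Low in neurons does not mean a level of 0 here: 1 of the 9 was under 1 CPM in every neuronal library, and the other 8 were listed at 4.05 to 9.88 CPM in at least 1.

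Trunks of AB* zebrafish embryos were dissociated, fluorescent cells were sorted and their RNA was sequenced at 72 hours post fertilization, with 3 libraries per population and 1750 ± 750 cells per library. Schwann cells were foxd3+ and sox10+ cells of Gt(foxd3:mCherry);Tg(sox10:mEGFP) fish, a gene trap joined to a transgene. Oligodendrocyte lineage cells were olig2+ and sox10+ cells of Tg(olig2:dsred);Tg(sox10:megfp) fish, and neurons were nbt+ cells of Tg(nbt:dsred) fish. The sample titles call the oligodendrocyte lineage libraries OPC, a short form for oligodendrocyte precursor cells, and how mature these cells were was not checked. Library totals ran from 7123251 to 11191844 counts in Schwann cells, from 11869510 to 15266878 in the oligodendrocyte lineage and from 11439759 to 17126213 in neurons. Each population came from its own fish line, so a difference between populations and a difference between lines or sorts cannot be told apart. The labels do not say whether replicate libraries stem from different clutches or sorts, so the spread behind each p-value may be technical. The sources used here do not pair the transcript IDs with gene names, so the reporter genes and cell type markers were not checked and no gene or function is given for any of the 9. An ID stands for 1 transcript, and other transcripts of the same gene may be present where it is low.

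Schwann cells are the glia of peripheral nerves and arise from the neural crest, whereas oligodendrocytes are the myelinating glia of the brain and spinal cord and arise from the neuroepithelium. Both lineages use the transcription factor Sox10 and both wrap axons in myelin, a membrane rich in lipids that speeds conduction. Many genes of metabolism and translation are active in glia and neurons alike.

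One transcript had at least 54.4 CPM in every glial library and was close to 0 in neurons. ENSDART00000111806.4, 8469 bases long, had 672, 399 and 189.7 CPM in Schwann cells replicates 1 to 3, then 72.2, 95.6 and 54.4 CPM in the oligodendrocyte lineage, and 0.0584, 0.274 and 0 CPM in neurons. Its neuronal levels stood for 1, 3.13 and 0 estimated counts, while the lowest glial library held 645 counts. All 6 glial libraries lay far above all 3 neuronal ones, and the Schwann cell libraries lay above the oligodendrocyte lineage libraries without overlap. A count of 0 in neurons replicate 3 allows up to 0.220 CPM, taking 3 counts as the limit. No molecular identifiers were used in the PCR-amplified libraries, so this limit covers counting error only. The gap between the lowest glial and the highest neuronal level was 5.44 on the log2(CPM + 1) scale, against 2.55 for the next of the 9.

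**Figure D1:**
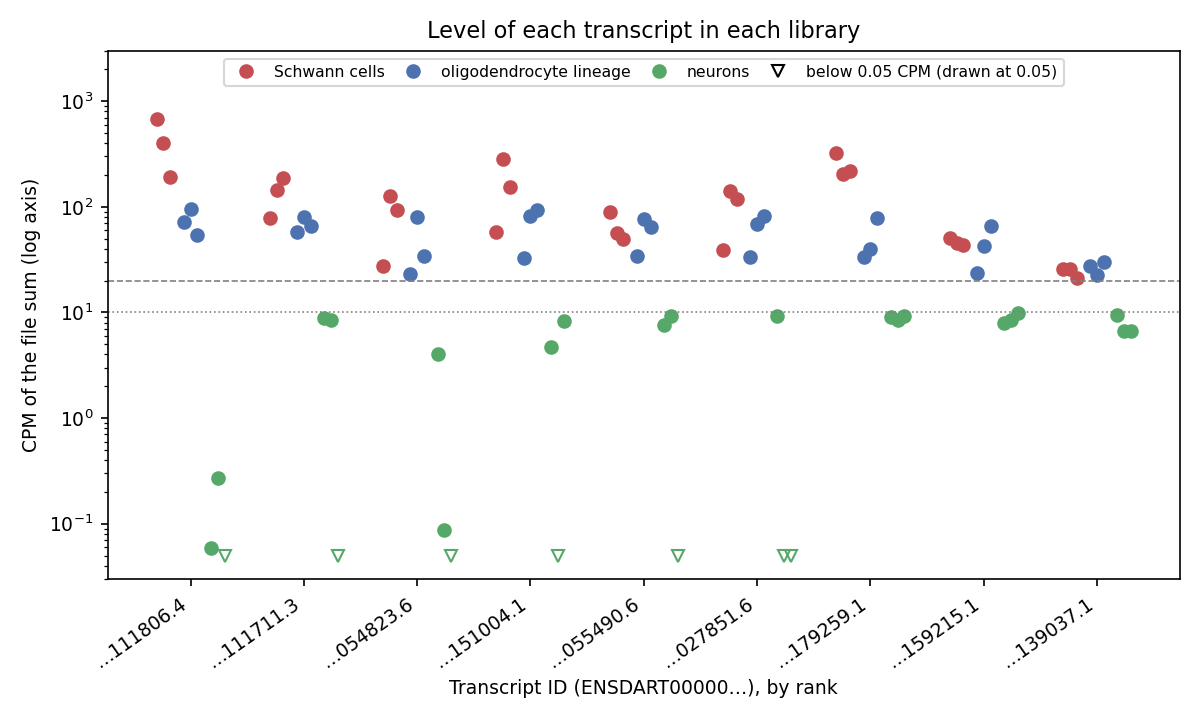
CPM of the file sum (log axis) of each of the 9 transcripts in each of 9 libraries, 1 point per library, with the glial floor of 20 CPM as a dashed line and the neuronal ceiling of 10 CPM as a dotted line. ENSDART00000111806.4 is the 1 transcript with all neuronal points under 1 CPM, and the other 8 have at least 1 neuronal point between 4.05 and 9.88 CPM.

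Another 5 transcripts were uneven across the neuronal libraries, with several CPM in at least 1 library and an estimated count that rounds to 0 in another. ENSDART00000111711.3, of 3076 bases, had 77.9, 143 and 187 CPM in the Schwann cell libraries, 57.2, 80.6 and 65.4 CPM in the oligodendrocyte lineage, and 8.92, 8.57 and 0 CPM in neurons. ENSDART00000054823.6, of 1235 bases, had 27.6, 126 and 93.8 CPM in the Schwann cell libraries, 23.2, 79.3 and 34.4 CPM in the oligodendrocyte lineage, and 4.05, 0.0874 and 0 CPM in neurons. The neuronal level of ENSDART00000054823.6 thus came from replicate 1 almost alone, where it held 69.3 counts, and its glial groups overlapped. ENSDART00000151004.1, of 1313 bases, had 57.5, 284 and 154 CPM in the Schwann cell libraries, 33.0, 82.5 and 94.0 CPM in the oligodendrocyte lineage, and 4.68, 0 and 8.35 CPM in neurons. ENSDART00000055490.6, of 1933 bases, had 89.1, 56.8 and 49.9 CPM in the Schwann cell libraries, 33.9, 76.5 and 64.1 CPM in the oligodendrocyte lineage, and 7.66, 9.23 and 0 CPM in neurons. In both of these the glial groups overlapped and 1 neuronal library was empty, replicate 2 for the former and replicate 3 for the latter. ENSDART00000027851.6, of 2037 bases, had 38.7, 142 and 119 CPM in the Schwann cell libraries, 33.5, 69.1 and 81.3 CPM in the oligodendrocyte lineage, and 9.29, 0 and 0.00169 CPM in neurons. Its 159 neuronal counts lay in replicate 1 to within 1 count.

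The remaining 3 transcripts were low but present in every neuronal library. ENSDART00000179259.1, of 1298 bases, had 321, 204.7 and 217 CPM in the Schwann cell libraries, 33.3, 40.2 and 77.5 CPM in the oligodendrocyte lineage, and 9.03, 8.46 and 9.28 CPM in neurons. Its neuronal level, 8.92 ± 0.418 CPM (SD, n = 3), was steady, and its Schwann cell libraries lay above all other libraries. ENSDART00000159215.1, of 993 bases, had 50.3, 45.2 and 43.9 CPM in the Schwann cell libraries, 23.5, 42.1 and 66.0 CPM in the oligodendrocyte lineage, and 7.99, 8.56 and 9.88 CPM in neurons. ENSDART00000139037.1, of 1948 bases, had 25.8, 25.5 and 21.3 CPM in the Schwann cell libraries, 27.4, 22.5 and 30.2 CPM in the oligodendrocyte lineage, and 9.43, 6.68 and 6.61 CPM in neurons. These last transcripts had overlapping glial groups, and their mean glial level was 5.13 and 3.36 times their mean neuronal level. ENSDART00000139037.1 was also the steadiest of the 9 across glia, with 1.42 times between its highest and lowest glial library, against 12.4 times for ENSDART00000111806.4.

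In all, 6 of the 9 had a neuronal library with an estimated count that rounds to 0. Leaving aside ENSDART00000111806.4, 5 of the 8 with a highest neuronal level from 4 to under 10 CPM had one, and so did 51.4% of all 5393 IDs in that range. Among all 1606 IDs over the glial floor, most of which had neuronal levels far above those of the 9, 1.81% had one. Neurons replicate 3 was empty for 5 of the 9, replicate 2 for 2 and replicate 1 for 0. Over all 52216 IDs, 25122, 23886 and 29021 had a count above 0 in neurons replicates 3, 2 and 1. Replicate 3 was the lowest neuronal library for 5 of the 9, replicate 2 for 3 and replicate 1 for 1. Among the 1606 IDs these shares were 28.8%, 45.1% and 26.1%. The neuronal ceiling of 10 CPM corresponds to 114 to 171 counts in a library, and the neuronal levels of 4 CPM or more rested on 69.3 to 161 counts. In bulk samples, fewer cells that carry a transcript and less of it per cell cannot be told apart, and whether the neuronal counts came from a few cells was not tested.

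The contrast between both glial groups was not part of the rule and was tested, although a floor on the lowest of 6 libraries favours transcripts with similar levels in both. Schwann cell means were higher for 8 of the 9, and the median fitted log2 fold change was 0.78 over the 9 against -0.20 over all 23408 transcripts tested. Among the 1606 IDs over the glial floor, from which the 9 were taken, 64.4% had a higher Schwann cell mean. The values over all tested transcripts come from a wider set, where 44.9% had a fitted log2 fold change above 0. Libraries did not overlap, with Schwann cells higher, for 2 of the 9, and the same held for 6.09% of all tested transcripts. The reverse, with every oligodendrocyte lineage library higher, held for 0 of the 9 and for 10.7% of those tested. At edgeR's quasi-likelihood adjusted p under 0.05, 0 of the 9 were called in either direction, where 0.795% of all tested transcripts were called, 0.226% as higher in Schwann cells and 0.568% as lower. An unadjusted edgeR p under 0.05 was reached by 2 of the 9 and by 17.1% of all tested. DESeq2 called 2 of the 9 higher in Schwann cells, and 5.65% of all tested. In that direction limma on log2(TPM + 1) called 1 of the 9 and 1.27% of all, and limma voom with quality weights called 0 of the 9 and 0.846% of all. None of these tools called a member lower. Of all 23408 tested, DESeq2 called 2092 lower, limma on log2(TPM + 1) 589 and limma voom 313, so 0 of 9 is no sign of a direction. In the settings other than the main fit where 0 of the 9 were called, limma voom included, 1 to 511 transcripts were called in all. That number was 1 of 26443 without oligodendrocyte lineage replicate 2, and 6 of 17082 with the 6 glial libraries alone. With so few called, 0 of 9 says little about the members.

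The transcripts with the lowest p were the 2 whose glial libraries did not overlap. ENSDART00000179259.1 averaged 247 ± 63.9 CPM in Schwann cells, 4.91 times its oligodendrocyte lineage mean of 50.3 ± 23.8 CPM (SD over 3 libraries in each). Its fitted log2 fold change was 2.21 (SE 0.763, edgeR adjusted p = 0.225), with an adjusted p of 0.0111 from DESeq2 and 0.0449 from limma on log2(TPM + 1). Over all settings other than the main edgeR fit, these DESeq2 and limma values included, its adjusted p ranged from 0.0111 to 0.490. Apart from those values none was under 0.05. ENSDART00000111806.4 averaged 420.3 ± 242 CPM in Schwann cells, 5.68 times its oligodendrocyte lineage mean of 74.1 ± 20.7 CPM. Its fitted log2 fold change was 2.46 (SE 0.993, edgeR adjusted p = 0.265), with an adjusted p of 0.0441 from DESeq2 and a range from 0.0441 to 0.512 over the settings tried.

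In the other direction the lowest p belonged to ENSDART00000139037.1 and ENSDART00000159215.1, the only 2 of the 9 with a fitted value below 0. Their log2 fold changes were -0.23 (SE 1.06, edgeR adjusted p = 0.982) and -0.0037 (SE 0.999, edgeR adjusted p = 1), and both signs turned under DESeq2 size factors and upper-quartile factors. ENSDART00000159215.1 had a Schwann cell mean of 46.5 ± 3.35 CPM against 43.9 ± 21.4 CPM in the other glia, so its fitted sign also went against the means of its CPM. ENSDART00000139037.1 was at 24.2 ± 2.51 and 26.7 ± 3.88 CPM. The other 5 had fitted log2 fold changes from 0.11 to 1.14, each smaller than its SE in this fit to 9 libraries. The spread in that fit includes the neuronal libraries. With the 6 glial libraries alone, ENSDART00000111711.3 was at 0.92 (SE 0.855) and ENSDART00000151004.1 at 1.15 (SE 0.959), neither called. The rest of the 5 stayed below their SE there too. Of the 5, ENSDART00000151004.1 had the widest gap, and its libraries overlapped. It was at 164.9 ± 113 CPM in Schwann cells against 69.8 ± 32.4 CPM in the oligodendrocyte lineage. With a common biological coefficient of variation of 1.58 in the fit, these tests do not show that the glial groups had alike levels.

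**Figure D2:**
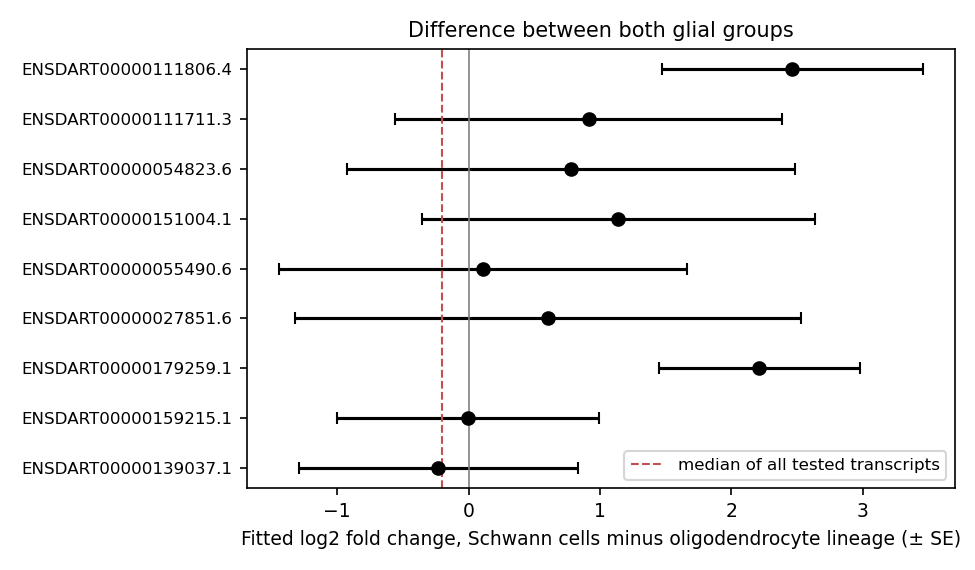
Fitted log2 fold change of Schwann cells minus oligodendrocyte lineage for the 9 transcripts, with SE bars from edgeR's fit to 9 libraries, and the median of all tested transcripts as a dashed line at -0.20. ENSDART00000179259.1 and ENSDART00000111806.4 lie at 2.21 and 2.46, and the bars of the other 7 cross 0.

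Within the oligodendrocyte lineage 1 library stood low for these transcripts. Replicate 1 was the lowest of its group for 7 of the 9 and the highest for 0, while it was the lowest for 35.9% of the 1606 IDs over the glial floor. It was also the lowest of all 6 glial libraries for 7 of the 9, and for 20.9% of the 1606. The summed level of the 9 was 337 CPM there, against 589 and 567 CPM in replicates 2 and 3 and 1360, 1425 and 1075 CPM in Schwann cells. These sums are uneven over the 9. ENSDART00000111806.4 and ENSDART00000179259.1 gave 672 and 321 of the 1360 CPM in Schwann cells replicate 1. They gave 72.2 and 33.3 of the 337 CPM in oligodendrocyte lineage replicate 1. Without oligodendrocyte lineage replicate 1 the median gap between lowest glial and highest neuronal level rose from 1.77 to 2.31 on the log2(CPM + 1) scale. It was the largest move from leaving out any 1 library. The gap can only stay or rise when a library is left out, so this rise restates the low places of replicate 1. Schwann cell libraries shared the low places, with replicates 1 and 3 lowest of their group for 4 each and replicate 2 for 1, against 35.3%, 33.9% and 30.8% of the 1606 for replicates 1, 3 and 2.

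Per length, the order of the 9 differed from that in CPM. TPM values, which are counts divided by the effective length of each ID and scaled to a fixed total, allow levels of different transcripts to be set side by side. The mean over the 6 glial libraries was highest for ENSDART00000179259.1, at 286 ± 229 TPM (SD, n = 6). ENSDART00000151004.1 followed at 218 ± 163 TPM, and the SDs of both, which pool both glial groups, far exceeded the difference between them. The first place came from Schwann cells. In the oligodendrocyte lineage ENSDART00000179259.1 averaged 94.8 ± 40.8 TPM, below ENSDART00000151004.1 at 131 ± 59.8 TPM and ENSDART00000159215.1 at 122 ± 55.8 TPM (SD, n = 3). ENSDART00000111806.4, first by CPM at a glial mean of 247, came to 54.6 ± 53.8 TPM, and ENSDART00000139037.1 was lowest at 28.7 ± 2.87 TPM. In Schwann cells alone, ENSDART00000179259.1 was at 635, 374 and 424 TPM, and in the oligodendrocyte lineage at 63.3, 80.2 and 141 TPM, so both groups stayed apart on this scale too. ENSDART00000159215.1 was at 26.2, 27.5 and 29.7 TPM in neurons, the highest neuronal TPM of the 9. With the same floor and ceiling read in TPM, 11 IDs would be taken, and ENSDART00000111711.3 and ENSDART00000054823.6 would be the only 2 of the 9 among them. ENSDART00000111806.4 would miss the floor, at 15.9 and 11.5 TPM in oligodendrocyte lineage replicates 1 and 3.

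The length of a transcript was not itself a condition of the rule. The limits were in CPM, which is not divided by length, so lengths of the 9 are not independent of the rule. The median length of the 9 was 1933 bases, with a range from 993 to 8469, against a median of 2421 and quartiles of 1685 and 4019 in the other 1597 IDs over the glial floor. ENSDART00000111806.4 was long even in that company, where 39 IDs, 2.44%, were at least as long. The median of the mean glial levels was 80.6 CPM over the 9 and 144.1 CPM over the other 1597.

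No member had whole-number counts throughout. Estimated counts are fractional where reads were divided between IDs, and 68 of the 81 values of the 9 in single libraries were fractional, with 6 whole and 7 rounding to 0. Of the 1606 IDs over the glial floor, 22.1% had whole numbers in every library. The part that this assignment of reads has in the low neuronal levels was not tested.

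The 9 lay at the edge of a broad overlap between glia and neurons. Of the 1606 IDs over the glial floor, 1316, or 81.9%, were also at 20 CPM or more in every neuronal library. Over all 1606 the median of the highest neuronal level was 114 CPM. Only 37 had a highest neuronal level from 10 to under 20 CPM. At the glial floor, the member nearest to it had 21.3 CPM in its lowest library, and ENSDART00000123248.2, just outside, had 17.1 CPM with at most 5.99 CPM in neurons. At the neuronal ceiling, the nearest member reached 9.88 CPM, and ENSDART00000124532.3, just outside, reached 10.5 CPM with at least 56.7 CPM in every glial library. A lowest glial level of at least 4 times the highest neuronal level was found for 11 IDs, of which 3 were among the 9 and 8 were above the ceiling. Those 8 had lowest glial levels from 56.7 to 1083 CPM and highest neuronal levels from 10.5 to 176 CPM.

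**Figure D3:**
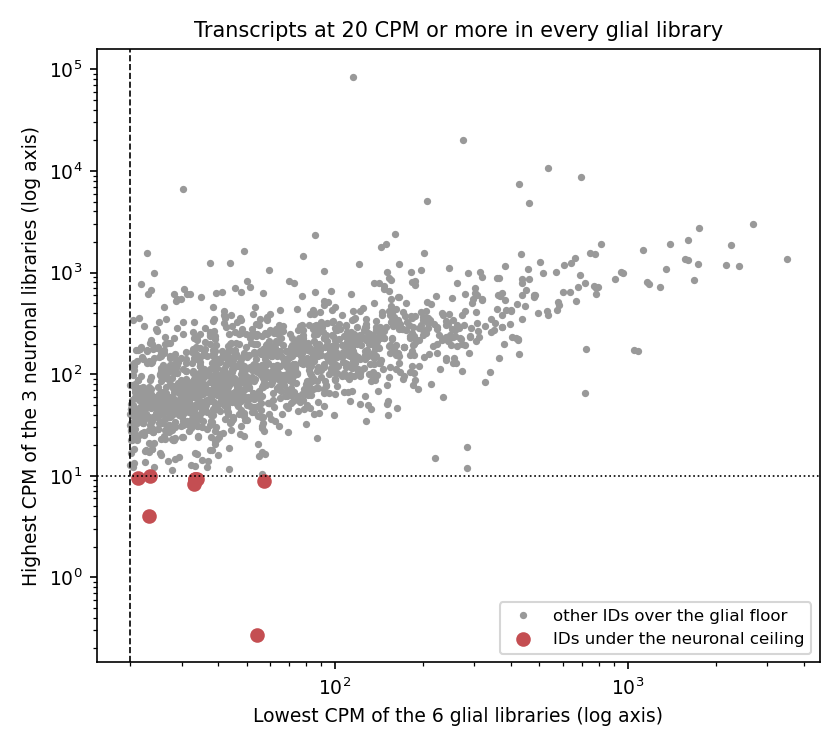
Lowest CPM of 6 glial libraries against highest CPM of 3 neuronal libraries (both log axes) for the 1606 transcripts at 20 CPM or more in every glial library, with the floor of 20 CPM dashed and the ceiling of 10 CPM dotted. The 9 described transcripts are in red, and ENSDART00000111806.4 is the lone point far below the rest.

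Far more IDs met the limits by group means than in every library. When group means replaced single libraries, 410 IDs had at least 20 CPM in both glial groups and under 10 CPM in neurons. Of the 401 that were not among the 9, 383 were under 20 CPM in at least 1 glial library, 303 of them in 2 or more, and 18 missed only through a neuronal library at 10 CPM or more. An estimated count that rounds to 0 in a glial library was found in 196 of the 410, or 47.8%. The matching rules for the other pairs of populations gave more IDs. The oligodendrocyte lineage and neurons shared 109 that were under 10 CPM in Schwann cells, 4.19% of 2604, and Schwann cells and neurons shared 48 that were under 10 CPM in the oligodendrocyte lineage, 2.66% of 1805. Those shares use the same libraries in other roles and were not tested against the 0.560% given above. The populations also differed in the number of IDs with a count above 0. It was 16568 to 22994 per library in Schwann cells, 19122 to 24495 in the oligodendrocyte lineage and 23886 to 29021 in neurons. The part this has in the shares was not tested.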

How the data were processed

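The deposited tables hold, per the file headers, a transcript ID, a length and an effective length in bases, and an estimated count for each ID in 9 libraries. Bowtie2 2.1.0, RSEM 1.2.15, Trimmomatic, FastQC and danRer10 are named, without roles, per the submitters' processing notes. The counting program and the annotation version are not given in the sources. A total of 0 IDs matched the tables of 29201 and 49597 genes that give symbols, so no sequence is printed either. The members, lists and tests were chosen with earlier results of these data known. CPM used the file sum, and TPM the deposited effective length. For the test between glial groups, the estimated counts deposited by the authors were rounded to whole numbers, then fitted for all 9 libraries with edgeR 4.0.16 in R 4.3.3. filterByExpr kept 23408 transcripts and all 9 members, TMM factors scaled the libraries, and group was the only term, with 6 residual degrees of freedom. Tests were two-sided with Benjamini-Hochberg adjustment over all tested transcripts, and SE values follow from the fold change and its F statistic. The fit was also run on simulated data, and no result given here rests on that run. Alternatives used limma 3.58.1 and DESeq2 1.42.0, other scalings, filters and thresholds, and fits without 1 library. All members are named by ID. Of those discussed singly, the rule took the highest ranked, the lowest p in each direction, the highest TPM and the IDs nearest each threshold, and the rest were chosen after their values were seen. A count under 0.5 was read as rounding to 0, and a whole count is within 1e-06.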

Additional observations from a re-analysis of the deposited data

How the results depend on the processing

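The number of transcripts that met the rule moved with nearly every threshold. It was 9 as given, 41 with a glial floor of 10 CPM, 2 with a floor of 50 CPM, 2 and 1 with a neuronal ceiling of 5 and 2 CPM, and 5 with TMM-scaled CPM, where ranks 1 to 5 stayed. With TPM it was 11, of which 2 were among the 9. Among whole-number IDs it was 0. Without 1 library it was 12 to 21. Leaving out a library drops a condition, so the count could only stay or rise and the 9 were kept by the rule itself. It was 15, 20 and 12 when Schwann cells replicate 1, 2 or 3 was left out. For oligodendrocyte lineage replicate 1, 2 or 3 it was 15, 13 and 13, and for neurons replicate 1, 2 or 3 it was 21, 15 and 18. Chosen after seeing the data, a neuronal mean in place of every library gave 27 and means in all groups gave 410. The median gap of the 9 was 1.77 on the log2(CPM + 1) scale. With 0.5 or 5 added to the CPM in place of 1 it was 1.82 or 1.45, and in TPM it was 1.64, which are unlike scales. Without 1 library it was 1.77 to 2.31, and leaving out a library could only keep or widen it.

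Members called higher in Schwann cells than in the oligodendrocyte lineage rose from 0 to 2 with DESeq2 and to 1 with limma on log2(TPM + 1). The share of all tested transcripts called in that direction rose too, from 0.226% in the main fit to 5.65% and 1.27%. The count was 0 under the other 16 settings, the 9 fits without 1 library included, and 0 were called lower under all 18. These 16 called 1 to 511 transcripts in all, so 0 of 9 says little. The median log2 difference of the 9 was 0.36 to 1.31. Upper-quartile factors, which gave 1.31, moved the median of all tested transcripts from -0.20 to 0.10, and DESeq2 size factors in edgeR moved it to -0.0091. Deviations of same-numbered libraries had r from -0.0395 to 0.0246 (9 pairs), which can miss pairing in few transcripts. With the replicate block edgeR called 2 transcripts, against 186 without it, and 0 of the 9. Their median difference was 0.92.

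Signs turned for 3 members with small differences, none called. ENSDART00000055490.6 was at -0.052 with the replicate block and from -0.20 to 0.29 without 1 library. ENSDART00000159215.1 was at 0.19 with DESeq2 size factors, 0.44 with upper-quartile factors, 0.017 without a filter, 0.035 with at least 10 CPM in 3 libraries, 0.10 with the replicate block and 0.0070 with the 6 glial libraries alone. It was at 0.19 with DESeq2, 0.36 with voom, 0.22 with limma on log2(TPM + 1), and from -0.31 to 0.52 without 1 library. ENSDART00000139037.1 was at 0.0060 with DESeq2 size factors, 0.25 with upper-quartile factors and 0.0053 with DESeq2. The cause was not tested.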
